A study of Mus musculus with 6 samples.

Results

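The MHC class II presentation genes are 10 mouse genes: H2-Oa, H2-Ob, H2-Aa, H2-Ab1, H2-Eb1, H2-DMa, H2-DMb1, H2-DMb2, Cd74 and Ciita. Their DNA methylation was read by enhanced reduced representation bisulfite sequencing (ERRBS), which reports, for cytosines in CpG dinucleotides of size-selected restriction fragments, the share of reads that still show C after bisulfite treatment. The libraries were made from naive B cells of the spleen, 3 from Tet2 knockout mice (KO) and 3 from wild-type mice (WT), all of strain C57BL/6 and with no treatment. Germinal centre B cells are mentioned in the series' design text, but the title and all sample labels say naive B cells, which is followed here. The labels do not give the age or sex of the mice, how the B cells were purified, how the knockout allele was built or in which cells it acts. They do not say that the libraries of a genotype came from different mice, so the p-values reflect library-to-library spread, which may be technical. The members were chosen by name, with earlier results of these data known. Each was read from 2 kb below its gene start to 2 kb above its gene end on GRCm38. These spans held 406 of the 1457048 CpG cytosines covered by 10 or more reads in all 6 libraries. Of the 10 genes, 8 had such cytosines, and H2-Aa and H2-DMb2 had none.

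MHC class II molecules display peptides from endocytosed proteins to CD4+ T cells, and B cells carry them constitutively. H2-Aa and H2-Ab1 encode the chains of the I-A molecule, and H2-Eb1 encodes the beta chain of I-E, whose alpha chain gene is defective in C57BL/6 mice. Cd74 encodes the invariant chain, which chaperones new class II molecules and leaves the fragment CLIP in their groove. H2-DM, made from H2-DMa with H2-DMb1 or H2-DMb2, exchanges CLIP for antigenic peptides, and H2-O, made from H2-Oa and H2-Ob, restrains H2-DM, chiefly in B cells. Ciita encodes the coactivator that turns the class II genes on, through the RFX, CREB and NF-Y proteins bound to conserved promoter elements called the X and Y boxes. TET2 oxidises 5-methylcytosine, a step of DNA demethylation. The oxidised base 5-hydroxymethylcytosine is read as methylated by bisulfite, so the values below hold both.

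The promoters of the class II genes are shown first, since they carry the elements on which Ciita acts and set what this assay could read there. RefSeq promoter windows (GRCm38.p6, 250 bases before to 50 after a transcription start) were listed for 7 of the 10 genes, with 8 windows in all. None was listed for H2-Ab1, Cd74 or Ciita, so statements on promoter windows do not cover these genes. The search used AAC, any 2 bases and ATGATG for the core of the X box and TGATTGG for the Y box, on both strands, and the 2 motifs did not overlap in any of the stretches shown. The X motif lay in 4 of these windows and the Y motif in 6, against 0.137% and 7.82% of all 32851 promoter windows. Both motifs stood together in 9 windows of the genome, 4 of them of the 10 listed genes. The motifs stand for elements already known from class II promoters, so these shares are a description. Below, capitals mark the X and Y motifs, each sequence runs 5′ to 3′ on the gene's strand, and stretches extend 20 bases beyond the motifs.
H2-Ob, chr17:34238800-34238872, plus strand: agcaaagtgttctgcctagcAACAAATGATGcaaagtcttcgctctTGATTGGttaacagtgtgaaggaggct
H2-Eb1, chr17:34305758-34305832, plus strand: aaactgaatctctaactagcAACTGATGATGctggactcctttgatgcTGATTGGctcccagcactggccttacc
H2-DMb1, chr17:34153079-34153154, plus strand: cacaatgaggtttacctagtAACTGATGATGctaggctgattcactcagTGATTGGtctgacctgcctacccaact
H2-DMb2, chr17:34145108-34145183, plus strand: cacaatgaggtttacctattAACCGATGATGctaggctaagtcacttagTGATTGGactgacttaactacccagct
H2-Aa, chr17:34287847-34287893, minus strand: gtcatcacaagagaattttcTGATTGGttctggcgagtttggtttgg
H2-Oa, chr17:34092314-34092360, plus strand: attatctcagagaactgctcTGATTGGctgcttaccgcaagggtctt

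These stretches hold at most 1 CpG each, and those of H2-Eb1 and H2-DMb1 hold none. In H2-DMb2 the CpG lies inside the X motif. None of their cytosines was measured in any library. The whole windows of H2-Oa, H2-Aa, H2-DMb1 and H2-DMb2 have 3 CpGs each, that of H2-Ob has 2 and that of H2-Eb1 has 0, against a median of 7 over all promoter windows. Within them, 2 cytosines of H2-Oa, at 34092392 and 34092421, reached 10 reads, in KO 2 alone, and all of those reads were unmethylated. The nearest cytosine measured in all 6 libraries was 2111 bp from the listed start of H2-Oa, 3645 bp from that of H2-Ob, 6304 bp from that of H2-Eb1 and 6468 bp from that of H2-DMb1. The results that follow hold no value from these promoters.

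The window of H2-DMa is the exception, but neither the X nor the Y motif was found in it. Its sequence is given with every CpG in capitals (chr17:34122582-34122881, plus strand).
H2-DMa: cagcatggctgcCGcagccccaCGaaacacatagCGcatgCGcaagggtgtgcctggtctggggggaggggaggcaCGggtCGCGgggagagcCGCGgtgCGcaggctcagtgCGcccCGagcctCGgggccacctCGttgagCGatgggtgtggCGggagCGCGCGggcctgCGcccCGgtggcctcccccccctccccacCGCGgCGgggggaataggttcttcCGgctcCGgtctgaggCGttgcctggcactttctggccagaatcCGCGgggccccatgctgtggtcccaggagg

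It holds 29 CpGs, and 16 cytosines were measured there in at least 1 library, all of them at a CpG of this sequence. Of these, 12 were measured in all 6 libraries. Their methylation was 0% in every KO library and at most 1.79% at any cytosine in a WT library. The window overlaps the gene of the bromodomain protein Brd2 (34112019 to 34122814), and part of it lies in that gene. Its listed start, 34122832, lies just above the upper end of Brd2. Whether the window acts as a promoter of H2-DMa, of Brd2 or of both was not tested. A second listed window of H2-DMa (34125268 to 34125567) has 0 CpGs and neither motif.

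The libraries held between 1551481 and 1626375 cytosines each, with a median coverage between 92 and 110 reads. The mean over the 1457048 shared cytosines was 33.7% ± 0.112 in the KO libraries and 33.4% ± 0.112 in the WT libraries (SD, n = 3 each). Of the B cell markers, the receptor components Cd79a and Cd79b were unmethylated, at 0.236% and 1.51% in KO and 0.146% and 1.02% in WT, while Pax5, a B cell transcription factor, stood at 29.1% in KO and 24.0% in WT. Regions of 5 T cell markers lay between 21.7% and 92.0% in KO and 21.1% and 92.0% in WT. Those of 5 myeloid markers lay between 73.2% and 96.1% in KO and 73.0% and 95.7% in WT, those of 4 dendritic cell markers between 13.0% and 95.1% in KO and 11% and 95.1% in WT, and those of 5 germinal centre and plasma cell markers between 0.179% and 73.2% in KO and 0.112% and 75% in WT. All KO libraries lay higher than all WT libraries in 3 of the 4 dendritic cell regions (Batf3, Zbtb46 and Flt3), 2 of the 5 germinal centre and plasma cell regions, and 1 region in each of the B cell, T cell and myeloid lists, against 24.3% of all gene regions. Dendritic cells also carry class II molecules. These are whole gene regions, none of them was called, and the part of other cell types in the class II values was not tested. Methylation gives no expression level, and methylation in more cells or on more alleles per cell cannot be told apart.

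Across the class II genes, 1 of 26 tested 1 kb tiles was called and 0 of 8 gene regions. A tile needed at least 3 cytosines, and a call needed an adjusted p under 0.05 in the quasi-binomial model and a difference of at least 10 percentage points of pooled reads. Over the genome, 0.112% of 108802 tiles were called as gains and 0% as losses, and of 17067 gene regions 0% were called in either direction, though without WT 3 the regions called were 189 gains and 1 loss. Of the 26 class II tiles, 18 were higher in KO, against 59.8% of all tiles, and their median difference was 0.127 points, against 0.176 over all tiles. The KO libraries were all higher than the WT libraries in 4 tiles and all lower in 1, which is 15.4% and 3.85% of the tiles, against 8.35% and 3.36% over the genome. At an unadjusted p under 0.05, 2 tiles stood higher in KO and 0 lower, where 5.74% and 1.46% of all tiles did. Of the 8 gene regions, 7 were higher in KO, where 80.2% of all gene regions were, and 2 were higher at an unadjusted p under 0.05, where 21.3% were. In 4 of them, KO libraries were all above WT libraries, against 24.3% of all regions, and in 0 all below, against 1.21%. Of the 273 cytosines that had both C and T reads, 0 were called, where 0.000731% over the genome were called as gains and 0% as losses. Higher in KO were 146, against 52.1% over the genome, and 23 of them had an unadjusted p under 0.05, as had 8 of the lower ones, against 5.31% and 3.17%. KO libraries lay above all WT libraries at 19 cytosines (6.96%) and below them at 4 (1.47%), against 3.95% and 2.99%. H2-Oa carried this excess: without it, 10 of 253 cytosines had KO libraries above all WT libraries, which is 3.95%, and 11 instead of 23 were higher at an unadjusted p under 0.05. The other 133 cytosines had reads of 1 kind in every library.

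**Figure D1:**
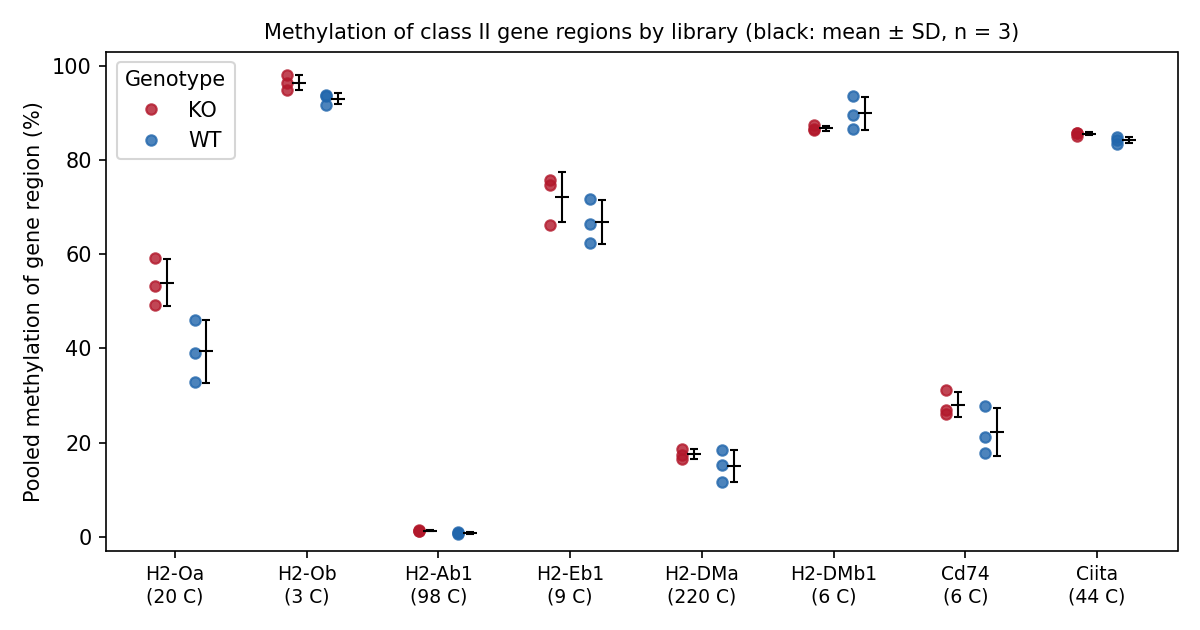
Pooled methylation of each class II gene region in percent of reads (vertical axis), with 1 point per library, KO left of WT in each pair, the mean ± SD over 3 libraries in black and the number of cytosines in brackets. H2-Oa has the widest gap, 53.9% in KO and 39.3% in WT, while H2-Ab1 lies near 1% and H2-Ob, H2-DMb1 and Ciita lie above 80% in every library.

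H2-Oa, the alpha chain of the H2-DM inhibitor, held the tile that gained methylation. The gene spans 34092379 to 34095234 on chromosome 17 (gene 15001, plus strand), inside the span of the long noncoding RNA gene BC051537 (34083843 to 34095309). Its tile from 34094001 to 34095000 lies inside the gene and has 16 cytosines, from 2111 to 2504 bp downstream of the start and ending 351 bp before the upper gene end. Whether they fall in exons or introns was not analysed here. In KO 1, KO 2 and KO 3 the tile stood at 37.5%, 43.6% and 35.6%, against 13.8%, 26.3% and 22.2% in WT 1, WT 2 and WT 3. The genotypes did not overlap: the lowest KO library was above the highest WT library, and WT 1 was the lowest of all.

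The pooled difference was 17.6 points, with a 95% interval from 11.5 to 23.8 points (adjusted p = 0.0215). Among the 122 gained tiles of the genome it ranked at 70 by size, and their median gain was 18.5 points. That count of 122 was 52 without KO 2, 50 without WT 1 and 79 without WT 3, and 0 in limma, in edgeR, without moderation and with tiles of 1 kind kept. Of the 4440 tiles at 10 to 30% in WT, 0.541% were called as gains and 12.2% had all KO libraries above all WT libraries, and the median difference of that class was 1.05 points. The tile was read 3991 times in KO and 3973 times in WT over its cytosines. With each cytosine weighted equally it stood at 40.1% ± 4.17 in KO and 20.3% ± 5.20 in WT (SD, n = 3 each). The call was lost without KO 1 (adjusted p = 0.0537), KO 2 (0.104), WT 1 (0.0710) or WT 3 (0.0629), while the difference stayed between 14.2 and 20.4 points in all 6 of these fits. It was also lost in limma (adjusted p = 0.708), in edgeR (0.884), without moderation of the overdispersion (0.903) and when tiles with reads of 1 kind were kept (0.185).

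Along the H2-Oa tile, methylation was highest at the lower end in KO and lowest at the upper end in WT. By the mean of libraries all 16 cytosines were higher in KO, by 3.60 to 39.0 points with a median of 19.1, and by pooled reads 15 of 16 were. None was called by itself (lowest adjusted p = 0.532). At 12 the unadjusted p was under 0.05, where 5.31% of all cytosines had such a p with KO higher. KO libraries were all above WT libraries at 9, against 3.95% of all cytosines. Among all cytosines at 10 to 70% in WT that share was 8.85%. The reads of these 16 cytosines made the tile's call, and neighbours share reads, so the counts give it no separate support. The 4 cytosines from 34094490 to 34094537 formed the read group with the highest mean level in KO. They share reads of the plus strand, at between 22.5 and 57.3 reads per cytosine, and their pooled level was 67.2%, 58.5% and 55.1% in KO 1 to KO 3, against 33.9%, 28.9% and 27.5% in WT 1 to WT 3. Here the genotypes stood apart, with the lowest KO library above the highest WT library.

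Of these 4 cytosines, the one at 34094513 had the largest difference of any class II cytosine. It stood at 75%, 62.8% and 62.1% in the KO libraries and at 33.3%, 30.4% and 19.0% in the WT libraries (pooled difference 40.3 points, 95% interval 21.7 to 59.0, adjusted p = 0.536). Those at 34094537 and 34094524 followed, with pooled differences of 31.4 and 26.0 points (adjusted p = 0.551 and 0.555). All 3 had KO libraries above WT libraries, and none was called.

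Towards the upper end of the H2-Oa tile, both genotypes were lower. The 3 plus strand cytosines from 34094831 to 34094879 stood at 30.5%, 46.9% and 22.9% in KO 1 to KO 3, against 4.33%, 18.7% and 7.18% in WT 1 to WT 3. The 6 minus strand cytosines from 34094800 to 34094883 stood at 35.5%, 28.8% and 27.5% in KO, against 5.38%, 20.2% and 22.4% in WT. By pooled reads both sets kept the genotypes apart. Singly, the minus strand cytosines at 34094815 and 34094832 did so, while those at 34094800, 34094860, 34094880 and 34094883 overlapped. The pooled minus strand level leans on the deeper cytosines: 34094800 had 168 reads per library in KO and 167 in WT, and 34094860 had 35.3 and 26.3. The 2 plus strand cytosines at 34094707 and 34094750 had the highest mean coverage of the tile's read groups in every library and overlapped: 35.7%, 64.9% and 50.9% in KO and 27.8%, 39.4% and 24.7% in WT. WT 1 had the lowest value of its genotype at 9 of the 16 cytosines.

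Beyond the upper end of H2-Oa, 4 cytosines from 34096115 to 34096199, which begin 1232 bp after the last cytosine of the gained tile, were methylated in both genotypes. Their tile stood at 92.9%, 93.8% and 93.0% in KO and at 95%, 92.2% and 92.8% in WT. The difference was 0.0715 points with a 95% interval from -3.51 to 3.65 (adjusted p = 0.998). As a whole the H2-Oa region, with all 20 cytosines, stood at 53.9% ± 5.02 in KO and 39.3% ± 6.63 in WT (SD, n = 3 each). Its difference of 14.1 points (95% interval 4.19 to 24.1) was not called (adjusted p = 0.142).

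**Figure D2:**
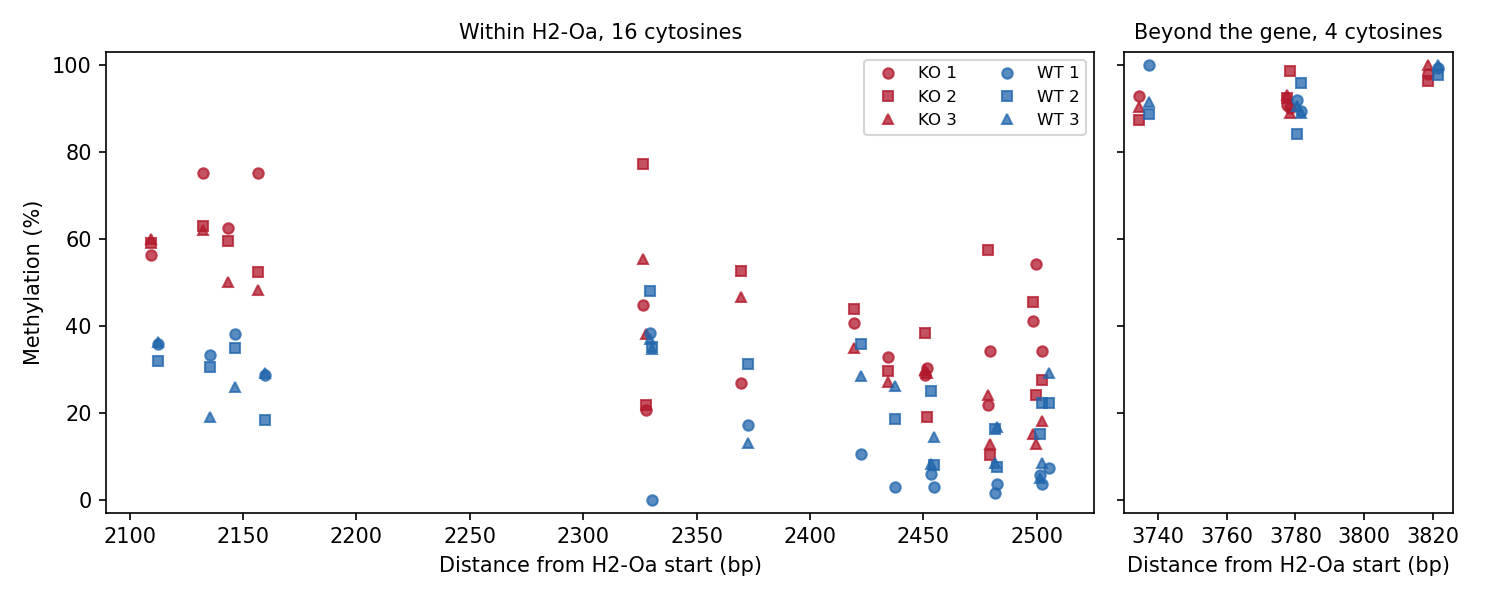
Methylation in percent (vertical axis) of each H2-Oa cytosine in each library, by distance from the gene start in bp (horizontal axis), with KO libraries in red and WT libraries in blue, drawn slightly left and right of each position. In the left panel the KO points lie mostly above the WT points, most clearly at the 4 cytosines nearest the start, and in the right panel both genotypes lie between 84% and 100%.

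H2-Ob, the beta chain of the same inhibitor (chromosome 17, 34238905 to 34245908, plus strand), had 3 cytosines, from 34242550 to 34242688. Their tile was almost fully methylated, at 98.0%, 96.2% and 94.8% in KO and at 91.6%, 93.6% and 93.7% in WT. KO libraries were all above WT libraries, by 3.34 points (95% interval -0.444 to 7.13, adjusted p = 0.750), and the tile was not called. None of its cytosines stood at 10 to 70% in WT.

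Among the classical chains, H2-Ab1 (chromosome 17, 34263227 to 34269418) was the most densely covered, with 98 cytosines. Of these, 96 lay between 34263414 and 34265005 and were unmethylated, at 0.148%, 0.229% and 0.189% in KO 1 to KO 3 and at 0.0904%, 0.160% and 0.145% in WT 1 to WT 3. At 61 of them no read in any library showed C. The tile from 34264001, with 90 cytosines, differed by 0.0711 points, with a 95% interval from -0.0317 to 0.174 (adjusted p = 0.819).

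Further along H2-Ab1, 4.86 and 5.04 kb above its lower end, lay 2 cytosines that stood apart from the rest of the gene. The one at 34268083 stood at 38.9%, 43.0% and 51.1% in KO, against 15.2%, 18.0% and 31.8% in WT. The other, at 34268271, stood at 91.1%, 89.6% and 98.1% in KO, against 80.2%, 88.0% and 67.2% in WT. Neither overlapped between genotypes, the differences were 22.7 and 15.4 points of pooled reads, and neither was called (adjusted p = 0.543 and 0.551). They lie in a tile with fewer than 3 cytosines, which was not among the 26. They were singled out after their values were seen. The H2-Ab1 region as a whole, at 1.33% ± 0.161 in KO and 0.826% ± 0.154 in WT (SD, n = 3 each), had KO above WT in all libraries and was not called (adjusted p = 0.173). That separation rests on these 2 cytosines. Pooled over the 96 unmethylated ones, the genotypes overlapped, with KO 1 at 0.148% and WT 2 at 0.160%.

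H2-Eb1 (chromosome 17, 34305867 to 34316674, plus strand) had 9 cytosines between 34312171 and 34314489, of which 5 were at 10 to 70% in WT. Each of the 9 was higher in KO by pooled reads, by 0.388 to 17.9 points. Its tile from 34314001, with 7 cytosines, stood at 86.6%, 84.0% and 79.2% in KO and at 77.6%, 77.0% and 74.6% in WT. KO libraries were all above WT libraries, with a difference of 7.23 points (95% interval 0.373 to 14.1), and the tile was not called (adjusted p = 0.675). Over its whole region, pooled reads gave 72.2% ± 5.26 in KO and 66.8% ± 4.68 in WT and overlapped, while equal weights per cytosine gave 74.1% ± 0.583 and 67.5% ± 0.217 and did not (SD, n = 3 each).

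H2-Aa, the alpha chain of I-A (chromosome 17, 34282744 to 34287823, minus strand), had a single cytosine, at 34288366, with 12 reads in KO 1 alone, all of them methylated. No comparison was possible for it.

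Cd74, the invariant chain (chromosome 18, 60803849 to 60812652), had 6 cytosines in 2 groups. The 3 near its lower end, from 60804717 to 60804871, were low, at 9.45%, 11.6% and 17.8% in KO and 4.95%, 12.2% and 12.8% in WT. The 3 further into the gene, from 60808136 to 60808159, stood at 62.8%, 73.4% and 59.3% in KO and 67.5%, 69.5% and 77.1% in WT. All 6 lie inside the gene. Both tiles overlapped between genotypes, with differences of 2.49 points (95% interval -3.60 to 8.57) and -5.80 points (95% interval -19.9 to 8.28), and neither was called (adjusted p = 0.920 for each). The second interval is wide: 544 reads were counted there in KO and 264 in WT. The cytosines at 60808136 and 60808154 were among the 3 largest losses of the class II genes, at -11.2 and -8.72 points (adjusted p = 0.686 and 0.718). With single libraries left out the second ranged from -16.8 without KO 2 to -0.0524 without KO 1, and it was -2.40 without WT 3. The Cd74 region had no stable direction: pooled reads gave 28.1% ± 2.65 in KO and 22.2% ± 5.13 in WT (adjusted p = 0.537 for 5.52 points), and equal weights gave 38.4% ± 3.20 in KO and 40.2% ± 4.04 in WT.

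H2-DMa (chromosome 17, 34119693 to 34139101, plus strand) held more than any other member, 220 cytosines, of which 176 lie in Brd2. Its 180 cytosines below 10% in WT had pooled levels of 0.351%, 0.476% and 0.876% in KO and 0.281%, 1.05% and 0.174% in WT. The whole region stood at 17.5% ± 1.07 in KO and 15% ± 3.46 in WT (SD, n = 3 each), a difference of 2.54 points (95% interval -1.62 to 6.69, adjusted p = 0.478). The 5 tiles of the unmethylated stretch, from 34118001 to 34123000, differed by between -0.160 and 0.367 points, and no library stood above 1.38% in any of them. Its 2 tiles at the upper gene end, from 34138001 and 34139001, stood between 90% and 96.1% in every library. The first of these was the single class II tile with all KO libraries below all WT libraries, at 94.1%, 94.4% and 94.0% in KO and 95.8%, 96.1% and 94.5% in WT, a difference of -1.35 points (95% interval -2.94 to 0.244, adjusted p = 0.767).

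Within H2-DMa, 5 cytosines stood at 10 to 70% in WT. The one at 34129048 stood at 89.3%, 61.9% and 76.9% in KO, against 53.6%, 48.2% and 50% in WT. It did not overlap between genotypes and differed by 24.5 points of pooled reads, without a call (adjusted p = 0.551), and it was singled out after its value was seen. Those at 34128988 and 34129022 differed by 11.1 and 13.4 points, those at 34136548 and 34139902 by 0.203 and 0.850 points, and these 4 overlapped between genotypes. The tile from 34129001, which also holds low cytosines, stood at 32.8%, 30.3% and 39.5% in KO and 19.2%, 29.6% and 34.8% in WT, with a difference of 6.44 points (95% interval -1.47 to 14.3, adjusted p = 0.778).

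H2-DMb1, a beta chain of H2-DM (chromosome 17, 34153191 to 34160229, plus strand), had 6 methylated cytosines from 34159659 to 34159952. They stood at 86.3%, 87.3% and 86.5% in KO and 89.6%, 86.5% and 93.6% in WT, the sole gene region lower in KO (difference -2.90 points, 95% interval -9.14 to 3.34, adjusted p = 0.614). The cytosine at 34159874 had the largest loss of the class II genes, at 89.7%, 85.1% and 78.8% in KO and 98.2%, 93.2% and 97.6% in WT. The genotypes did not overlap there, and its difference of -11.6 points (95% interval -18.3 to -4.88) was not called (adjusted p = 0.551). H2-DMb2, the other beta chain (34143229 to 34151553, plus strand), had 5 cytosines, none of them in all libraries. Those at 34143266, 34143294 and 34143302 reached 22 reads in WT 1 alone and were unmethylated, and those at 34152101 and 34152118, which lie between H2-DMb2 and H2-DMb1, were at 83.3% or more in every library but WT 1, which lacked them.

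Ciita, the coactivator gene (chromosome 16, 10480014 to 10531064), had 44 cytosines in 8 tested tiles, none of which was called. Of its cytosines, 39 stood at 70% or more in WT. Its region stood at 85.6% ± 0.358 in KO and 84.2% ± 0.734 in WT (SD, n = 3 each), a difference of 1.35 points (95% interval -1.05 to 3.76, adjusted p = 0.516). The genotypes were separate by pooled reads, with KO higher, and overlapped by equal weights. The tile with the smallest p, from 10530001, overlaps the neighbouring gene Dexi and stood at 97.0%, 96.0% and 96.8% in KO and 93.2%, 95.4% and 92.8% in WT (3.05 points, 95% interval -0.0438 to 6.15, adjusted p = 0.698).

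Of the tested Ciita tiles, that from 10488001 had the lowest methylation; it and the single cytosines below were picked after their values were seen. There 5 cytosines, from 10488312 to 10488414, stood at 65.8%, 61.0% and 68.7% in KO and 56.7%, 61.4% and 63.3% in WT (difference 4.51 points, 95% interval -1.75 to 10.8, adjusted p = 0.816). Their differences had both signs. The one at 10488344 stood at 35.8%, 38.3% and 46.7% in KO and at 0%, 27.5% and 38.5% in WT, while those at 10488377 and 10488414 were lower in KO, by -3.81 and -2.95 points. At 10516658, inside the gene, the libraries stood at 67.6%, 90.7% and 75% in KO and 43.2%, 64.4% and 62.5% in WT and did not overlap, with a difference of 20.4 points and no call (adjusted p = 0.585). Lower still, in a tile with too few cytosines to be tested, were the cytosine at 10502162, at 8.55% ± 5.15 in KO and 8.43% ± 4.68 in WT, and that at 10502211, at 24.0% ± 7.86 in KO and 27.5% ± 7.24 in WT (SD, n = 3 each).

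**Figure D3:**
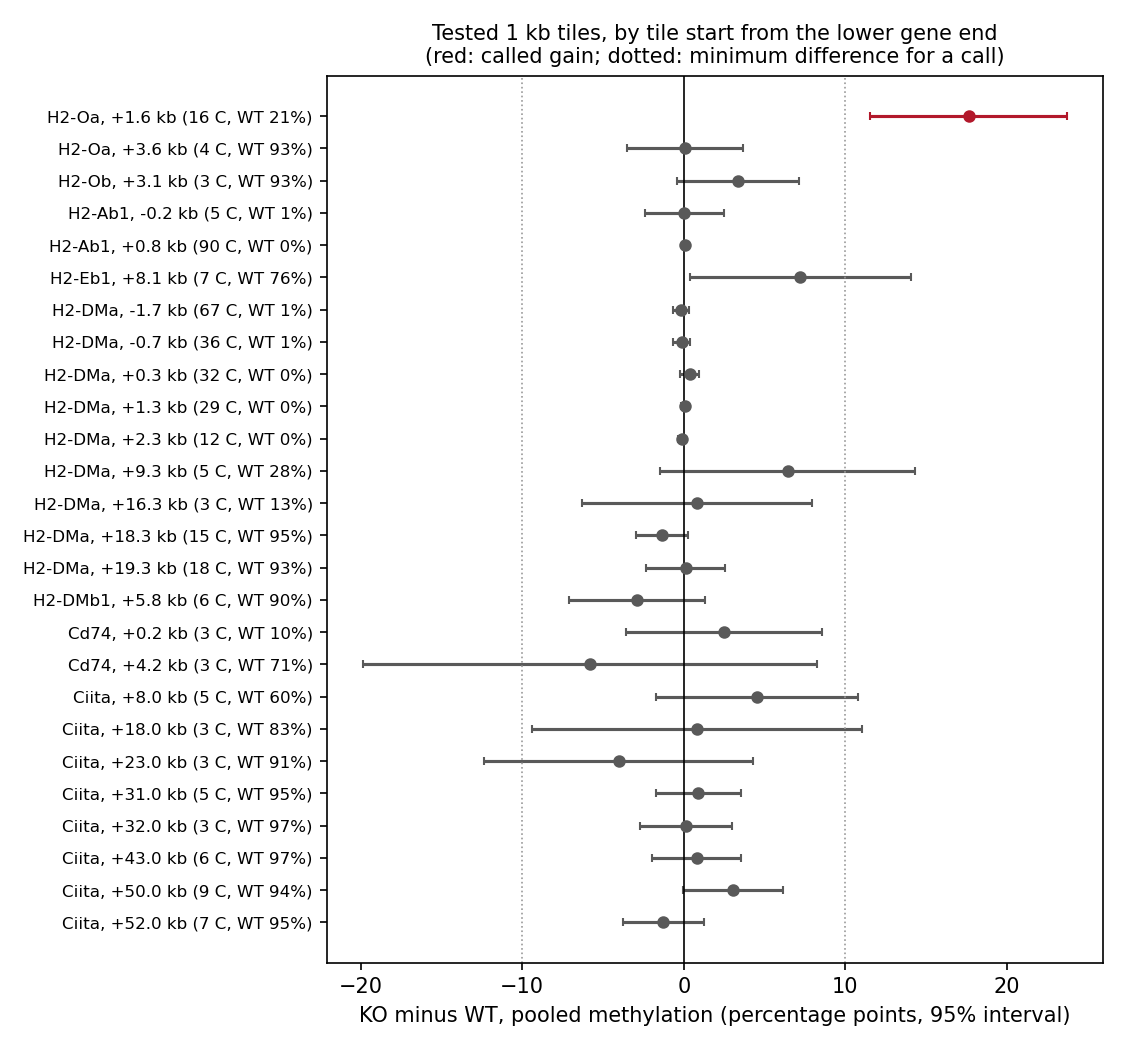
Difference of pooled methylation, KO minus WT, in percentage points with its 95% interval (horizontal axis), for the 26 tested tiles, each named by gene, distance of the tile start from the lower gene end, number of cytosines and WT level. The H2-Oa tile, in red, at 17.6 points is the sole call, and the unmethylated tiles of H2-Ab1 and H2-DMa lie within 0.4 points of 0.

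Cytosines at intermediate levels, a class set after the values were seen, were mostly higher in KO. In all, 29 class II cytosines stood at 10 to 70% in WT, and 28 of them were higher in KO by the mean of libraries, against 57.7% of the 99386 cytosines of that class in the genome. Their median difference was 14.8 points, against 1.54 points over the genome. All KO libraries were above all WT libraries at 11 of the 29, against 8.85%, and 6 of these 11 were in H2-Oa. The median difference was 19.1 points in H2-Oa and 22.7 at the 1 cytosine of H2-Ab1. In Cd74, H2-Eb1, H2-DMa and Ciita it was 6.15, 6.50, 10.5 and 11.1 points. H2-Oa supplied 12 of the 29, and without it 16 of 17 were higher in KO: 5 of 5 in H2-Eb1, 5 of 5 in H2-DMa, 2 of 2 in Cd74, 1 of 1 in H2-Ab1 and 3 of 4 in Ciita. Neighbouring cytosines share reads, so these are not independent, and no test was made of the count. With the class set by the mean of all 6 libraries, 30 of 32 were higher in KO, and without any 1 library the share was at least 24 of 28, found without WT 2. Leaving H2-Oa out as well, 14 of 17 were higher without KO 1, without KO 2 and without KO 3. The counts were then 12 of 15 without WT 1, 13 of 17 without WT 2 and 16 of 18 without WT 3. Without WT 2, 57.5% of that class in the genome were higher.

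Over all 406 cytosines, each weighted equally, mean methylation was 25.7%, 25.7% and 25.4% in KO 1 to KO 3, against 23.8%, 24.9% and 24.6% in WT 1 to WT 3. Means of 25.6% ± 0.131 in KO and 24.4% ± 0.584 in WT did not overlap between libraries (SD, n = 3 each). Without H2-Oa the means were 24.3% ± 0.0373 and 23.9% ± 0.420, and the nearest libraries, KO 2 and WT 2, stood at 24.3% and 24.2%. The mean over all 1457048 cytosines was also without overlap, with the lowest KO library at 33.6% and the highest WT library at 33.4%, so the lack of overlap is not particular to the class II genes.

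**Figure D4:**
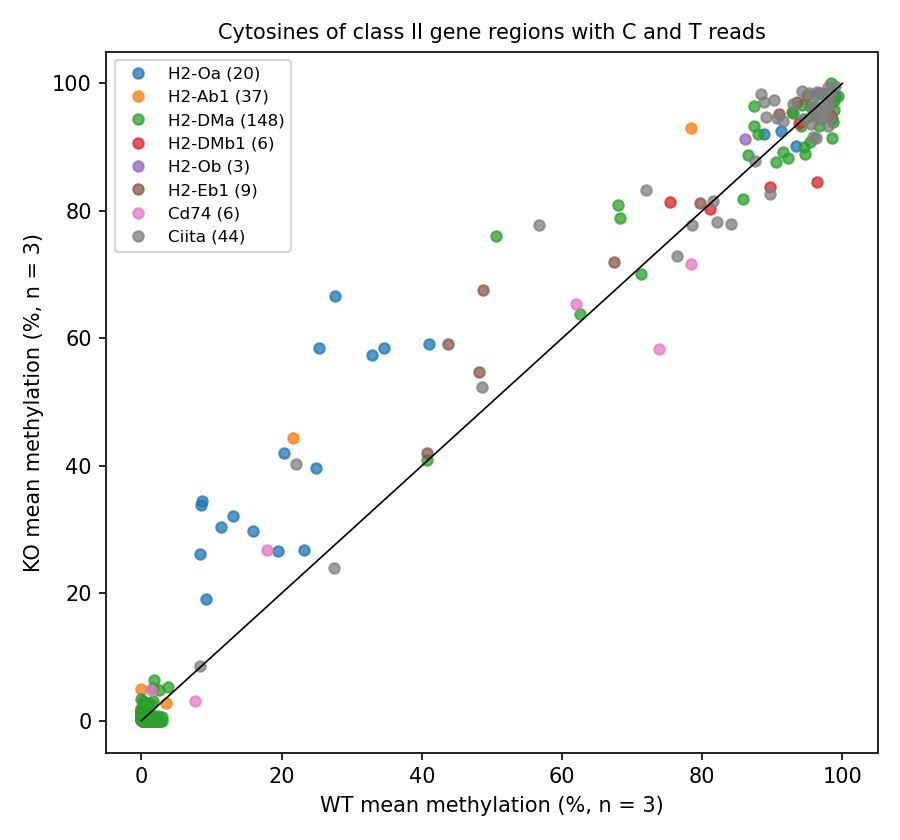
Mean methylation in KO (vertical axis, percent) against that in WT (horizontal axis, percent) for the 273 class II cytosines with both C and T reads, coloured by gene, with the line of equality. Most points near 0% and 100% lie close to the line. The 4 H2-Oa cytosines below 10% in WT lie above it, as at 34094859, with 8.65% in WT and 34.4% in KO. The H2-DMb1 cytosine at 34159874 lies below it, with 96.3% in WT and 84.5% in KO. Of the 29 cytosines between 10 and 70% in WT, 28 lie above the line.

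The other genes of the pathway showed no called region or tile. Of 20 further genes listed, 18 were found as protein-coding genes, 17 had a tested region, and 0 of these were called by the quasi-binomial model, with 11 higher and 6 lower in KO and a median difference of 0.298 points, against 0.976 over all gene regions. At an unadjusted p under 0.05, 2 of the 17 were higher in KO and 0 lower, against 21.3% and 0.211% of all regions. In the group of X and Y box factors (Rfx5, Rfxap, Rfxank, Nfya, Nfyb, Nfyc and Creb1), 3 of 7 were higher, and no region was above 22.9% in KO or 25.5% in WT. Nfya, a subunit of NF-Y, stood at 6.65% ± 2.05 in KO and 4.27% ± 0.865 in WT (SD, n = 3 each), with an adjusted p of 0.201 for its difference of 2.45 points.

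Among genes that process antigen and invariant chain (Ctss, Ctsl, Ctsb, Ctsd, Lgmn, Ifi30 and Sppl2a), 7 of 7 were higher, against the same 80.2% of all gene regions. Ifi30, a thiol reductase of lysosomes, stood at 37.4% ± 6.28 in KO and 29.3% ± 2.58 in WT (SD, n = 3 each), with KO above WT in all libraries and an adjusted p of 0.231. Ctss, the protease that trims the invariant chain in B cells, stood at 95.6% ± 0.902 in KO and 95.2% ± 0.285 in WT (SD, n = 3 each). Of the genes for turnover of surface class II, Marchf1 stood at 73.6% ± 2.09 in KO and 68.3% ± 7.30 in WT, and Marchf8 and Cd83 differed by -0.00890 and -0.428 points. H2-Eb2 had no tested region.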

How the data were processed

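ERRBS libraries of 3 Tet2 KO and 3 WT mouse samples were analysed. Reads were processed with Bismark on GRCm38, per the submitters' processing notes; its version and any trimming or removal of duplicates are not given here. Per the file headers, the authors deposited for each cytosine and strand the coverage, an unnormalized read count of 10 or more, and the percent of C and of T among those reads. C and T counts were recovered as percent times coverage, whole within rounding for 100% of values. No molecular identifiers are described, so reads need not be independent molecules.

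Gene spans and promoter windows came from RefSeq (GRCm38.p6). Cytosines, 1 kb tiles and gene regions (gene with 2 kb on each side, at least 3 cytosines) were fitted over the whole genome with a quasi-binomial model of 1 level per genotype, whose overdispersion was moderated by the empirical Bayes method of limma, computed in Python 3.11.15, with a floor of 1. Genotypes were compared by F tests, adjusted by Benjamini-Hochberg over all features of a kind. Features with reads of 1 kind in all libraries were left out. Differences are KO minus WT of pooled reads, and 95% intervals come from the same model. The model was also run on simulated tiles, whose overdispersion was drawn from the kind of distribution that the moderation assumes. That run cannot show whether this distribution suits these data. Alternatives used limma 3.58.1 and edgeR 4.0.16 (R 4.3.3).

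The members and gene lists were chosen with earlier results of these data known. Named are all members, their tile with the smallest p, called tiles, the 3 largest gains and losses among cytosines and the 2 further pathway genes with the smallest p; any further tile, cytosine or gene was picked with its values in view. Markers of B, T, myeloid, dendritic, germinal centre and plasma cells were also read: of their 23 tested regions 0 were called, and 0 of their 119 tiles. The values of 1 marker are not reported here.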

Additional observations from a re-analysis of the deposited data

How the results depend on the processing

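Results were recomputed with tiles shifted by 500 bp, coverage of at least 20, an upper limit on coverage, equal weights per cytosine, no minimum of cytosines per tile, no flanks, summed strands, no moderation, limma, edgeR, a replicate block, each library left out and, chosen after seeing the data, features with reads of 1 kind kept and the class of intermediate cytosines. Of the class II tiles, 1 was called under the main settings, and 0 with the replicate block, without moderation, with features of 1 kind kept, in limma or in edgeR (each of these 2 tools put 3 tiles higher and 0 lower below an unadjusted p of 0.05). Between 0 and 1 was called with 1 library left out. The cause of these losses was not tested. Class II gene regions and cytosines had 0 calls under every alternative run. Below an unadjusted p of 0.05, 2 regions stood higher and 0 lower in the quasi-binomial model, 3 and 0 in limma and 2 and 0 in edgeR, where the quasi-binomial model put 21.3% of all regions higher. The Cd74 region reversed with equal weights, at -2.04 instead of 5.52 points; the other 23 regions, tiles and cytosines recomputed kept their direction. Tiles and cytosines named beyond these were not recomputed. With the replicate block the H2-Oa tile had an adjusted p of 0.764 and the genome 0 called tiles. The labels do not say whether same-numbered KO and WT libraries were paired. Their deviations from the genotype means correlated at 0.0481, -0.0293 and -0.00736 over 29505 tiles. KO 1 correlated best with its own number, and KO 2 and KO 3 with another number. With 3 libraries per genotype, values this small cannot decide whether libraries were paired. Cd74, H2-Ob and H2-DMb1 had at most 6 cytosines each, and H2-Aa and H2-DMb2 could not be compared.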

Other observations

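At H2-Oa, both strands of 4 CpGs in the gained tile were measured, and the strands were farthest apart at 1 of them. The CpG at 34094707 stood at 59.1% in KO and 41.0% in WT on the plus strand and at 26.8% in KO and 23.2% in WT on the minus strand, where WT 1 had 0% of 21 reads. At the other 3, from 34094831, 34094859 and 34094879, the KO means were 32.2%, 34.4% and 33.9% on the plus strand and 26.2%, 19.1% and 30.3% on the minus strand, and the WT means of the strands differed by 4.60, 0.567 and 2.80 points. These differences between strands were not tested.

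Outside the class II genes, the 3 gene regions with values nearest to the H2-Oa tile over the 6 libraries, by Euclidean distance in percentage points, were those of Htr4, a serotonin receptor, Rai14 and Dgki, a diacylglycerol kinase. Rai14 stood at 35.9% ± 3.86 in KO and 23.6% ± 3.68 in WT over 133 cytosines, and Dgki at 36.5% ± 3.69 and 23.3% ± 5.35 over 155 cytosines (SD, n = 3 each). They were picked for this likeness, so it is a description.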
